A study of Mus musculus with 20 samples.

Results

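Heat shock proteins and cochaperones were examined in DC2 cells, an immortalized mouse line derived from principal cells of the distal caput epididymis. The 10 genes were chosen by name, Hspa1a, Hspa1b, Hspa8, Hsp90aa1, Hsph1, Dnajb1, Hspb1, Hspd1, Hspe1 and Bag3, and all 10 were found among the 21509 protein-coding genes of each of 2 RNA-seq experiments. In the first experiment, 6 libraries came from cells under shear stress at 1 dyn/cm2 for 3 h (flow) and 6 from cells kept for the same time without it (static). In the second, 4 libraries came from cells given a mix of siRNAs to Ift88, an intraflagellar transport gene, and 4 from cells given a scrambled control siRNA. The labels of the siRNA libraries name no flow, and the methods place both siRNA groups under flow. All cells had been kept in low serum beforehand and, as a line, were grown below body temperature, so no group stands for cells at body temperature. The title of flow replicate 6 says flow but its treatment entry says static. The title was followed, and for some of the results the other reading is also given.

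Heat shock proteins are molecular chaperones that bind unfolded or partly folded proteins. HSP70 proteins hold and release their substrates in an ATP-driven cycle, in which J proteins deliver the substrate and stimulate ATP hydrolysis, while HSP110 and BAG proteins act as nucleotide exchange factors. HSP90 takes over substrates such as kinases and steroid receptors, small heat shock proteins hold unfolded proteins without using ATP, and HSP60 with its lid HSP10 folds proteins inside mitochondria. Many of these genes are transcribed at a basal rate and further induced by heat shock factor 1 (HSF1), which binds inverted repeats of the unit GAA in promoters.

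Of the 10 genes, Hspa1a and Hspa1b encode nearly the same inducible HSP70 and lie 9951 bases apart on the minus strand of chromosome 17 (GRCm38, GENCODE M21), Hspa1a at chr17:34969190-34972156 and Hspa1b at chr17:34956436-34959238. Their coding sequences differed at 8 of 1923 aligned bases, with 3 further bases in a gap, so that only 11.6% of the 31-base words of the Hspa1a coding sequence and 11.8% of those of Hspa1b were not found in the other gene. The 30-base coding stretch without a gap that held the most differences (2) is printed next, with the differing bases in capitals. The division of reads between both genes rests on such bases and on their 5′ and 3′ ends.
Hspa1a, coding bases 1877 to 1906: cgccCaaGggagcctctggctcaggaccca
Hspa1b, coding bases 1880 to 1909: cgccGaaAggagcctctggctcaggaccca

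Their promoters are as alike. The 250 bases before the start sites (RefSeq, GRCm38.p6) differed at 3 positions, and each holds 1 match to a pair of inverted GAA units (GAANNTTC or TTCNNGAA, each of which reads the same on both strands). They are shown, with the matched bases in capitals, to set the nearly identical pair beside Hspb1, which encodes a small heat shock protein and holds 2 matches.
Hspa1a, chr17:34972157-34972406, minus strand: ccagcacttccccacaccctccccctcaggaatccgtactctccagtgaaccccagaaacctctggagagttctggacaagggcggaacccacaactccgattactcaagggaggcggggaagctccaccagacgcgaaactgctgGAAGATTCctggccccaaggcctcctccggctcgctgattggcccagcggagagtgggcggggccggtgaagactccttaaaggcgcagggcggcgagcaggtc
Hspa1b, chr17:34959239-34959488, minus strand: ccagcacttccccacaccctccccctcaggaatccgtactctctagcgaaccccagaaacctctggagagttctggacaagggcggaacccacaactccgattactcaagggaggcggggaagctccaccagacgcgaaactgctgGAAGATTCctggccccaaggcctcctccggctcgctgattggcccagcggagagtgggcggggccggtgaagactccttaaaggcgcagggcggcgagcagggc
Hspb1, chr5:135887669-135887918, plus strand: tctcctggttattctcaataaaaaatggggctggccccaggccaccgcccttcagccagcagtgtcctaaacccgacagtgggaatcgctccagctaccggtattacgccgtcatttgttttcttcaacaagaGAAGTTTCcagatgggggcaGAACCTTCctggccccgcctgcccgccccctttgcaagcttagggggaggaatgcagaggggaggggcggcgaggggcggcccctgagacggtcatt

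Hspd1 (HSP60, chr1:55077835-55088243, minus strand) and Hspe1 (HSP10, chr1:55088132-55091307, plus strand) lie head to head and overlap by 112 bases. Between 89 and 72 bases before the start of Hspe1 is a run of inverted GAA units, in capitals in the 30 bases shown, and the same run is in the window of the second start site of Hspd1.
Hspe1 and Hspd1, chr1:55088053-55088082, plus strand: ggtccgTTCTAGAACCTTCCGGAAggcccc
A promoter entry was found for 8 of the 10 genes, other than Hspa8 and Hsp90aa1. Of these 8, 6 (Hspa1a, Hspa1b, Hsph1, Hspb1, Hspd1 and Hspe1) held a 2-unit match, which 14.5% of 27025 genes held, and 2 (Hspd1 and Hspe1) held the 3-unit form, GAANNTTCNNGAA or its reverse complement TTCNNGAANNTTC, which 0.514% held. The windows of Dnajb1 and Bag3 held no match. The 3-unit form contains the 2-unit form. These matches are descriptions of letters, not measured binding.

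Expression is given in TPM, transcript abundances corrected for transcript length and scaled to the same total in each library, so that levels can be set side by side between genes within an experiment. In the flow and static libraries the order of mean TPM was Hspa8 (1749), Hsp90aa1 (661), Hspd1 (527), Hspe1 (479), Hspb1 (276), Hsph1 (74.6), Dnajb1 (46.5), Hspa1b (43.2), Bag3 (41.7) and Hspa1a (6.20). Hspa8, the constitutive HSP70, was above the other 9 in each of the 12 libraries, and Hspa1a was the lowest in each. The ranges over libraries overlapped among Hsp90aa1, Hspd1 and Hspe1, between Hspe1 and Hspb1, among Dnajb1, Hspa1b and Bag3, and between Hsph1 and Hspa1b. Such ranges leave out that the genes were measured in the same libraries. Within libraries, Hsp90aa1 was above both Hspd1 and Hspe1 in each of the 12. Together the 10 genes made up 0.320% to 0.458% of the TPM of a library over both experiments.

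Hspa1b and Hspa1a varied most between libraries under flow, and replicates 5 and 6 of both conditions held their highest values. Hspa1b was at 24.7 to 76.5 TPM (median 37.2) under flow and at 29.3 to 61.5 TPM (median 36.2) in the static libraries. In replicates 1 to 4 it lay between 24.7 and 39.5 TPM in both conditions, and in replicates 5 and 6 it was at 76.5 and 75.8 TPM under flow and at 61.5 and 42.4 TPM in the static libraries. The groups overlapped, with a log2 fold change of 0.15 (95% interval -0.43 to 0.73, limma adjusted p = 0.998). Hspa1a was at 3.30 to 10.5 TPM (median 5.77) under flow and at 3.71 to 7.94 TPM (median 5.22) in the static libraries, for a log2 fold change of 0.08 (95% interval -0.46 to 0.63, limma adjusted p = 0.998). Without flow replicate 6 the log2 fold change of Hspa1b was -0.013. Summed over both genes, which does not depend on how reads were divided between them, the log2 fold change was 0.14 (95% interval -0.44 to 0.72).

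For the partners of HSP70 the groups overlapped as well. Dnajb1, the J protein that serves inducible HSP70, was at 41.4 to 57.0 TPM (median 48.2) under flow and at 40.2 to 47.8 TPM (median 44.1) in the static libraries. Its log2 fold change of 0.152 (95% interval -0.03 to 0.34, limma adjusted p = 0.998) was the highest of the 10 genes, just above the 0.150 of Hspa1b. For Dnajb1 5 of 6 pairs with the same number were higher under flow. Its value was 0.070 with flow replicate 6 counted as static and 0.042 with library weights. Without flow replicate 2 it was 0.135, below the 0.206 of Hspa1b. In the fit with a replicate block the unadjusted p of Dnajb1 was 0.0389 and its limma adjusted p was 0.419. Bag3, a nucleotide exchange factor that links HSP70 to selective autophagy, was at 34.4 to 56.0 TPM (median 39.5) under flow and at 35.5 to 49.8 TPM (median 40.5) in the static libraries. Its log2 fold change was -0.0029 (95% interval -0.26 to 0.25). Hsph1, an HSP110, was at 60.9 to 88.4 TPM (median 77.5) under flow and at 64.8 to 78.7 TPM (median 76.5) in the static libraries, for a log2 fold change of 0.0024 (95% interval -0.21 to 0.22). For both genes 3 of 6 pairs were higher under flow.

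For the 3 most abundant of the genes, Hspa8, Hsp90aa1 and Hspd1, the same 5 of 6 pairs were higher under flow, and replicate 2 went the other way. Hspa8 was at 1621 to 2059.9 TPM (median 1831) under flow and at 1535 to 1824 TPM (median 1683) in the static libraries, for a log2 fold change of 0.11 (95% interval -0.04 to 0.26, limma adjusted p = 0.998). Hsp90aa1, the inducible cytosolic HSP90, was at 518 to 797 TPM (median 705) under flow and at 583 to 684 TPM (median 641) in the static libraries, for a log2 fold change of 0.09 (95% interval -0.10 to 0.29). Hspd1 was at 383 to 712 TPM (median 562) under flow and at 394 to 573 TPM (median 524) in the static libraries, for a log2 fold change of 0.08 (95% interval -0.24 to 0.39). In each of these 3 genes flow replicate 2 was the lowest flow library, and replicate 2 was the 1 pair that was lower under flow. Without flow replicate 2 the log2 fold changes were 0.14, 0.17 and 0.17, and none was called.

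Hspe1 was at 362 to 596 TPM (median 475) under flow and at 366 to 553 TPM (median 469) in the static libraries, for a log2 fold change of 0.01 (95% interval -0.26 to 0.29). Hspb1 was at 222 to 375 TPM (median 269.7) under flow and at 238 to 318 TPM (median 259) in the static libraries, for a log2 fold change of 0.09 (95% interval -0.16 to 0.34). Both were higher under flow in 4 of 6 pairs.

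**Figure D1:**
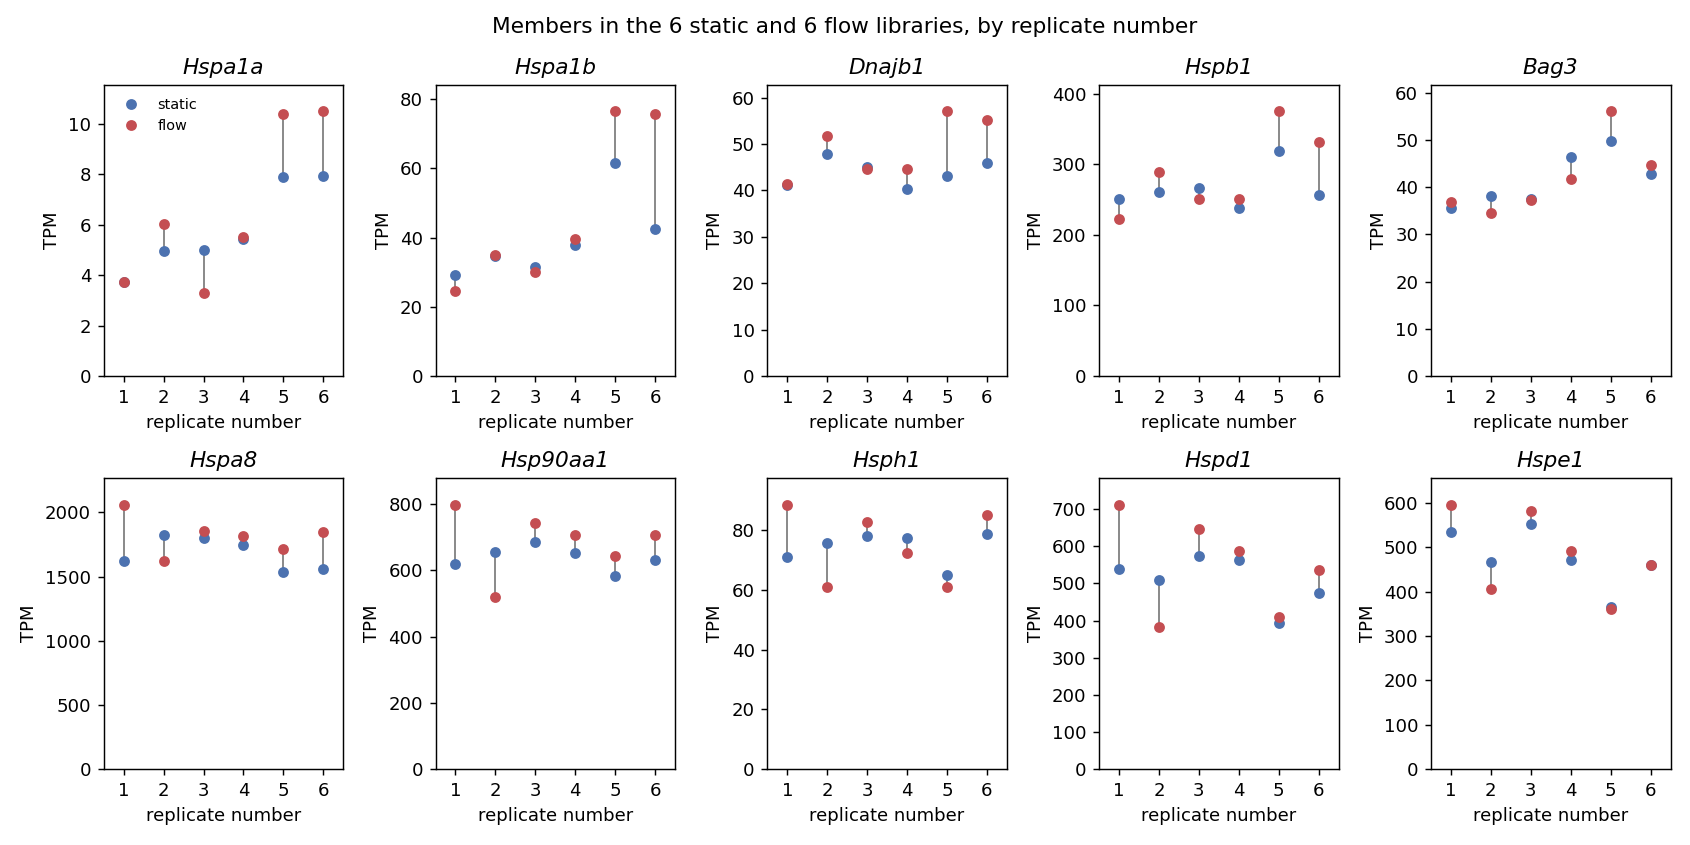
TPM (vertical axes, from 0) of each of the 10 genes in the flow (red) and static (blue) libraries, by replicate number, with a grey line joining the 2 libraries of a number. The groups overlap in each panel, and the highest values of Hspa1a and Hspa1b lie in replicates 5 and 6 of both conditions.

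Thus 0 of the 10 genes were called in flow against static (limma adjusted p under 0.05 and over 1.5-fold), where 0.105% of 11388 genes were, and 0 of 10 in the fit that adds a block for the replicate number, where 0.597% were. None of the 10 had an unadjusted p under 0.05, against 3.85% of genes, and 1 did with the block, against 11.1%. In 0 of the 10 genes did the 6 flow libraries lie apart from the 6 static libraries, against 0.544% of genes. None was higher in all 6 pairs (1.98% of genes), and 5 of 10 (Hspa1a, Hspa8, Hsp90aa1, Dnajb1 and Hspd1) were higher in at least 5 (11.5% of genes). The fitted mean was higher under flow for 9 of 10 genes, against 38.8% of genes, with a median log2 fold change of 0.088 against -0.026 over the genes tested. That count depended on single libraries, most on flow replicate 6. It was 6 of 10 without this library, against 35.3% of genes, and 5 of 10 when the library was counted as static, against 34.4%. Without flow replicate 1 or flow replicate 5 it was 7 of 10, and over the 12 fits that each left out 1 library it ran from 6 to 10. In 8 of the 10 genes the 95% interval lay inside a 1.5-fold change in either direction, and in Hspa1a and Hspa1b it reached beyond it.

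**Figure D2:**
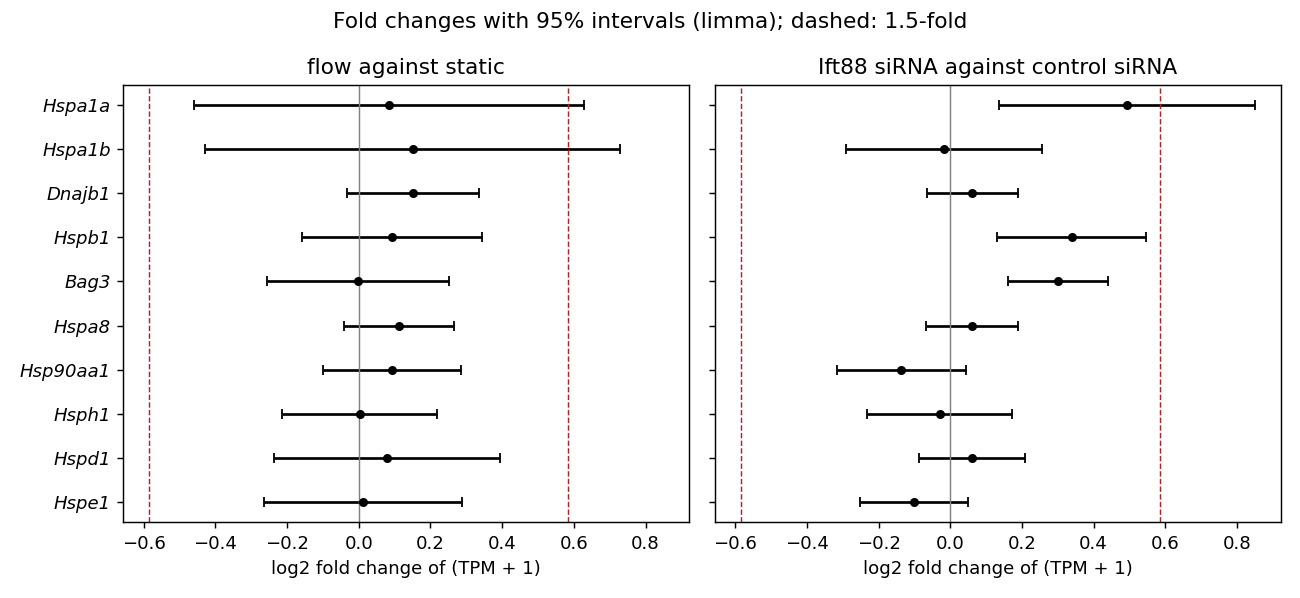
Log2 fold change of TPM + 1 (points) with 95% intervals from limma (bars) for the 10 genes, in flow against static (left) and Ift88 siRNA against control siRNA (right), with 1.5-fold marked by dashed lines. Each interval on the left spans 0, and on the right those of Hspa1a, Hspb1 and Bag3 lie above 0.

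Replicate sets differed in the first experiment, in which the first principal component (34.4% of the variance) placed replicates 1 to 3 below 0 and replicates 5 and 6 above it in both conditions. The replicate number held 94.1% of the sum of squares of log2(TPM + 1) for Hspe1, 92.3% for Bag3, 89.1% for Hspa1a and 86.1% for Hspa1b. The condition held 0.073%, 0.0052%, 0.85% and 2.23%. The shares lay closest for Hspa8, with 27.8% for the replicate number and 22.8% for the condition. The condition share was highest for Dnajb1, at 24.5% beside 54.1% for the replicate number. The replicate number has more levels than the condition, so it takes a larger share from noise alone. Over the 10 genes the median share of the replicate number was 76.1%, close to the 70.0% over the genes tested. What the replicate numbers stand for was not stated in the sources used here.
The flow response was compared between replicates 4 to 6 and replicates 1 to 3. This split came from earlier results of these data and not from the labels, so its p-values describe a division made with the data known. On the first component replicate 4 lay between the sets, at 4.59 under flow and -1.16 in the static library. In replicates 4 to 6 the log2 fold change was 0.40 for Hspa1b, 0.27 for Dnajb1 and 0.22 for Hspb1, and in replicates 1 to 3 it was -0.098, 0.036 and -0.038. The value of Hspa1b rested on replicate 6, the library with conflicting labels, since flow exceeded static by 0.82 on the log2 scale there and by 0.062 and 0.31 in replicates 4 and 5. The difference between the replicate sets was 0.50 for Hspa1b (95% interval -0.24 to 1.24, limma adjusted p = 1.00, and 0.09 to 0.90 with the replicate block, unadjusted p = 0.0213, adjusted p = 0.968). It was 0.23 for Dnajb1 (95% interval -0.12 to 0.58) and 0.26 for Hspb1 (95% interval -0.20 to 0.72). None of the 10 genes had an adjusted p under 0.05, against 0% of genes, and none did with the block, against 0.158% of genes.

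Across the 12 libraries the 10 genes fell into 2 sets that varied in opposite directions, a division that was made after the values were seen and is given as a description. Hspa1a, Hspa1b, Dnajb1, Hspb1 and Bag3 varied together, with Pearson's r of log2(TPM + 1) above 0 in 10 of 10 pairs of genes (median 0.78). Hspa8, Hsp90aa1, Hsph1, Hspd1 and Hspe1 did so as well (10 of 10 pairs, median 0.80), with the highest r, 0.92, for Hspd1 and Hspe1, whose proteins work as 1 complex. Between both sets r was below 0 in 25 of 25 pairs (median -0.38, lowest -0.80). The points share the replicate sets and the fixed total of TPM, and in replicates 1 to 4 alone 21 of the 25 pairs were below 0. In those 8 libraries r was above 0 in 8 of 10 pairs of the first set (lowest -0.49, median 0.45) and in 10 of 10 of the second. In the differences between same-numbered flow and static libraries (n = 6), 10 of 10 pairs within each set were above 0, and 16 of the 25 between sets were below it. With median-of-ratios scaling r was above 0 in 9 of 10 and 10 of 10 pairs within the sets and below 0 in 23 of 25 between them.
The 8 siRNA libraries did not show this division. There r was above 0 in 8 of 10 pairs of the first set and 5 of 10 of the second, and below 0 in 12 of 25 pairs between them. For Hspd1 and Hspe1 r was 0.04 in these libraries, and for Hspa1a and Hspa1b it was -0.12, after 0.94 in the 12 flow and static libraries.

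**Figure D3:**
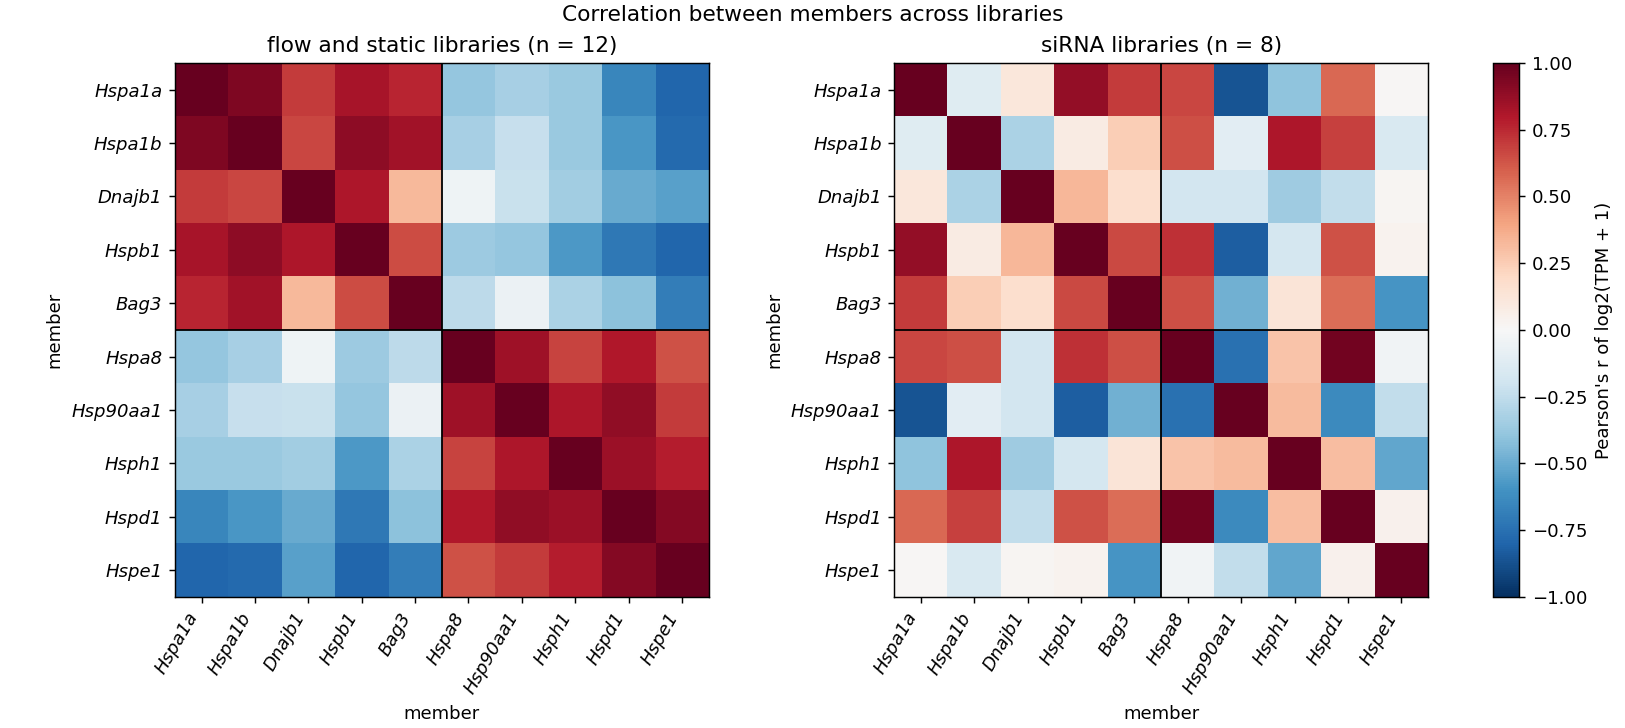
Pearson's r of log2(TPM + 1) between the 10 genes over the 12 flow and static libraries (left) and the 8 siRNA libraries (right), from -1 (blue) to 1 (red), with black lines between the 2 sets of 5. On the left the blocks within a set are red and the 25 pairs between sets are below 0, and on the right 12 of the 25 are.

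As a group, the mean of the 10 standardized genes was followed most closely in the flow and static libraries by Hnrnpa2b1, an RNA-binding protein (r = 0.94, n = 12), 8030462N17Rik (0.92), the transcription factor Ets1 (0.92), Ints6, a subunit of Integrator (0.91), and Abt1 (0.91). That mean represents its own genes poorly here, since their r with it ran from 0.10 (Hspe1) to 0.70 (Hsp90aa1). Over the siRNA libraries this r ran from -0.65 (Hsp90aa1) to 0.93 (Hspa8), so the mean did not stand for all of its genes there either. In the 8 siRNA libraries the closest genes were Dap3, a protein of the mitochondrial ribosome (r = 0.97), Gng12, a G protein subunit (0.97), Galm (0.97), Ugt1a6a (0.97) and Ccdc86 (0.96). None of these 5 was among the closest 5 of the other experiment.

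The targeted gene was lower in each Ift88 siRNA library. Ift88 was at 1.71, 1.27, 1.28 and 0.917 TPM with Ift88 siRNA and at 4.21, 4.08, 4.15 and 4.12 TPM with control siRNA, for a log2 fold change of -1.17 (SE 0.13, limma adjusted p = 0.00212).

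None of the 10 genes was called in Ift88 siRNA against control siRNA, where 0.223% of 11209 genes were, nor by adjusted p alone, where 0.633% were. Bag3, Hspb1 and Hspa1a, or 3 of 10 genes, had an unadjusted p under 0.05, against 13.9% of genes, and all 3 means were higher with Ift88 siRNA, as in 9.02% of genes. Bag3 was at 145, 154, 136 and 131 TPM with Ift88 siRNA and at 114, 116, 109.6 and 119 TPM with control siRNA. Each Ift88 siRNA library was above each control library, as in 5.79% of the genes tested. The log2 fold change was 0.30 (SE 0.06, 95% interval 0.16 to 0.44, limma adjusted p = 0.0597). Over 14 alternatives it lay between 0.26 and 0.34, always under 1.5-fold, with adjusted p between 0.0175 (library weights) and 0.22 (without Ift88 siRNA replicate 2).

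Hspb1 was at 219.7, 195, 224 and 232 TPM with Ift88 siRNA and at 159, 204, 145 and 184 TPM with control siRNA. The groups overlapped by 1 library of each, and the log2 fold change was 0.34 (SE 0.10, 95% interval 0.13 to 0.55, limma adjusted p = 0.142). Hspa1a was at 11.7, 9.68, 9.87 and 11.8 TPM with Ift88 siRNA and at 5.42, 8.35, 6.07 and 10.4 TPM with control siRNA. Control replicate 4 lay inside the range of the Ift88 siRNA libraries, and the log2 fold change was 0.49 (SE 0.16, 95% interval 0.14 to 0.85, limma adjusted p = 0.215).

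Hspa1b did not follow Hspa1a. It was at 8.31, 9.63, 7.76 and 7.29 TPM with Ift88 siRNA and at 9.17, 9.70, 6.91 and 7.75 TPM with control siRNA, for a log2 fold change of -0.02 (SE 0.13, 95% interval -0.29 to 0.26, limma adjusted p = 0.967). For the sum of both genes it was 0.25 (SE 0.11, 95% interval 0.01 to 0.49, limma adjusted p = 0.337). The ratio of Hspa1b to Hspa1a was 0.777 ± 0.161 (SD, n = 4) with Ift88 siRNA and 1.19 ± 0.388 (SD, n = 4) with control siRNA. In the other experiment it was 7.21 ± 1.09 (SD, n = 6) under flow and 6.88 ± 0.961 (SD, n = 6) in the static libraries. The lowest ratio there, 5.34, was above the highest in the siRNA libraries, 1.69. Both tables were made separately, and the part of the read assignment in this difference was not tested. The direction of each of these genes alone is therefore uncertain.

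**Figure D4:**
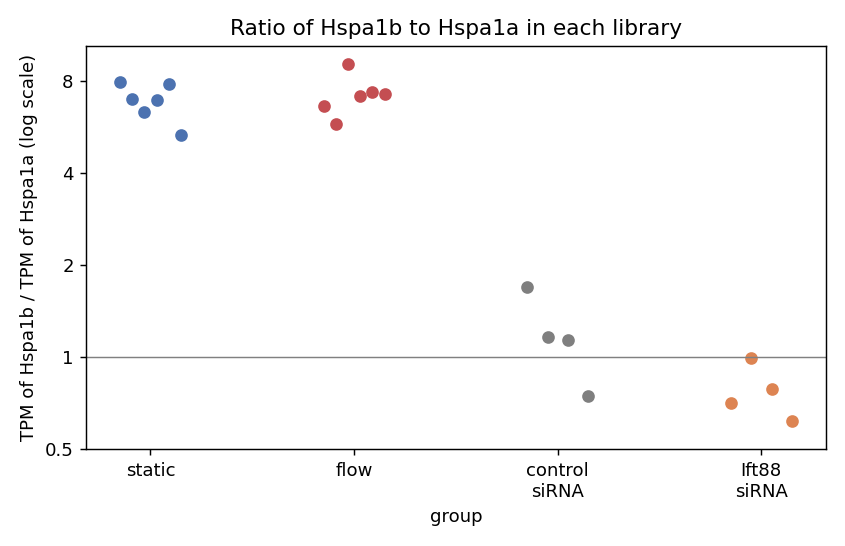
TPM of Hspa1b divided by TPM of Hspa1a (vertical axis, log scale) in each library of the 4 groups, with a line at a ratio of 1. The static and flow libraries lie between 5.34 and 9.10 and the siRNA libraries between 0.62 and 1.69.

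The fitted mean was higher with Ift88 siRNA for 6 of the 10 genes, against 55% of the genes tested. The remaining 6 genes lay near 0, with both signs. Hsp90aa1 was at 443, 482, 512 and 419.8 TPM with Ift88 siRNA and at 546, 459, 570.4 and 469 TPM with control siRNA, for a log2 fold change of -0.14 (95% interval -0.32 to 0.04, limma adjusted p = 0.485). Hspe1 was at 217, 222, 237 and 263 TPM with Ift88 siRNA and at 245, 259, 234 and 267 TPM with control siRNA, for a log2 fold change of -0.10 (95% interval -0.25 to 0.05, limma adjusted p = 0.555). Both sets of libraries overlapped widely. For Hspd1, Hspa8 and Dnajb1 the log2 fold change was 0.06 each, and for Hsph1 it was -0.03, with 95% intervals that reached at most from -0.23 to 0.21. In the other 7 genes, those without an unadjusted p under 0.05, the interval lay inside a 1.5-fold change in either direction, as it did for Bag3 and Hspb1.

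**Figure D5:**
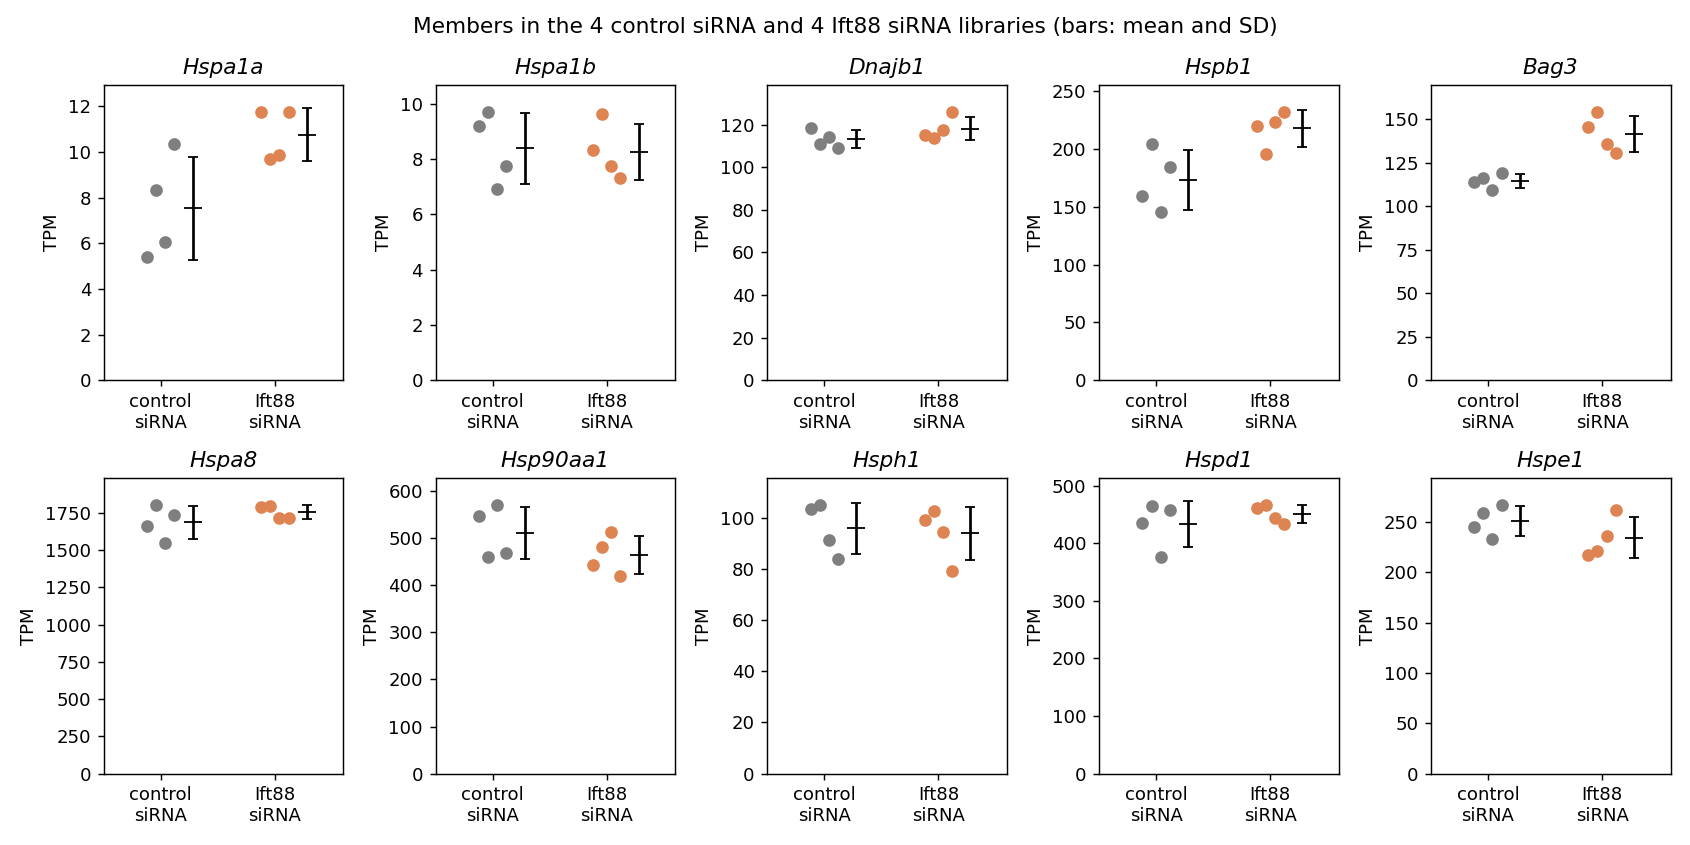
TPM (vertical axes, from 0) of each of the 10 genes in the 4 control siRNA libraries (grey) and the 4 Ift88 siRNA libraries (orange), with mean and SD beside them. Only in the panel of Bag3 do the groups not overlap.

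A further 82 chaperone genes, cochaperones, heat shock factors and heat-inducible genes were in the tables, of which 79 passed the filter on low TPM. In flow against static 0 of 79 were called, 2 were higher at an unadjusted p under 0.05 (2.05% of genes were) and 0 lower (1.79% were), with a median log2 fold change of 0.01. Dnajb4, a J protein, was at 44.6 to 115 TPM (median 62.5) under flow and at 39.7 to 57.6 TPM (median 46.8) in the static libraries, for a log2 fold change of 0.51 (SE 0.21, limma adjusted p = 0.998). That value was 0.249 with flow replicate 6 counted as static, 0.250 within replicates 1 to 3 and 0.769 within replicates 4 to 6.
By family, 0 of 11 other HSP70 and HSP110 genes, 0 of 14 HSP90 genes and partners and 0 of 14 genes of the TRiC and prefoldin folding complexes had an unadjusted p under 0.05, and the size of their log2 fold changes was at most 0.17. It reached 0.51 among the J proteins, 0.42 among the other small heat shock proteins, 0.37 among the other heat-inducible genes, 0.32 among the heat shock factors and 0.16 among the BAG proteins and other HSP70 partners. The regulator Hsf1 averaged 54.9 ± 4.94 TPM under flow, against 54.8 ± 5.40 TPM without it (SD, n = 6 each).

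In Ift88 siRNA against control siRNA 0 of the 79 were called, and 8 were higher and 5 lower at an unadjusted p under 0.05 (9.02% and 4.91% of genes), with a median log2 fold change of 0.02. The largest positive differences were in Hspb2 and Hspb6, small heat shock proteins, and in Dnajb4. Hspb2 averaged 10.4 ± 1.03 TPM with Ift88 siRNA, against 6.92 ± 2.03 TPM with control siRNA (SD, n = 4 each), a log2 fold change of 0.56 (limma adjusted p = 0.155). Dnajb4 was at 64.6 ± 4.44 and 51.5 ± 1.44 TPM, a log2 fold change of 0.32 (limma adjusted p = 0.0588). Hspb6 was at 71.2 ± 5.19 and 58.3 ± 3.59 TPM, a log2 fold change of 0.28 (limma adjusted p = 0.112).
By family, the fitted mean was higher in 4 of 4 other small heat shock proteins (2 of them at an unadjusted p under 0.05), against 55% of the genes tested. It was higher in 7 of 11 HSP70 and HSP110 genes, 6 of 14 HSP90 genes and partners, 10 of 16 J proteins, 5 of 11 BAG proteins and other partners, 7 of 14 TRiC and prefoldin genes, 3 of 4 heat shock factors and 4 of 5 other heat-inducible genes. On the lower side Hmox1, heme oxygenase, had a log2 fold change of -0.38 (limma adjusted p = 0.0978), Ptges3, the HSP90 cochaperone p23, one of -0.32 (limma adjusted p = 0.291), and St13, an HSP70 partner, one of -0.28 (limma adjusted p = 0.291). Without control siRNA replicate 3 the values of Ptges3 and St13 were -0.19 and -0.16. Hsf1 averaged 83.5 ± 2.95 TPM with Ift88 siRNA, against 82.0 ± 3.76 TPM with control siRNA (SD, n = 4 each).

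The libraries did not carry the defining genes of epididymal principal cells at more than a trace. Lcn8 and Rnase9 were at 0 in all 12 flow and static libraries, Lcn5 was at 0 in 10 of them, and Aqp9 averaged 0.171 TPM. Of 5 epithelial genes, Krt18 and Krt19 averaged 52.1 and 15.8 TPM, while Epcam, Cdh1 and Krt8 were at most at 1.73 TPM in any of these libraries. Leukocyte genes (Ptprc, Adgre1 and Cd3e) were at most at 0.088 TPM. Among fibroblast genes Dcn reached 3.49 TPM and Col1a1 1.66 TPM, and the highest values of Col1a2 and Pdgfra were lower. The highest value of Dcn was thus above those of Epcam, Cdh1 and Krt8. Endothelial genes (Pecam1, Cdh5 and Kdr) were at most at 0.918 TPM. The part of cell makeup in the differences between replicate sets was not tested, and a lower share of cells and less RNA per cell cannot be told apart in such libraries.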

How the data were processed

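The authors deposited TPM for 21509 protein-coding genes, in 1 table per experiment. By the methods, poly(A) libraries were made with a strand-specific kit, reads were assigned to Ensembl mouse transcripts with kallisto and summarised per gene with tximport. Trimming is given as Trimmomatic in the methods and as fastp 0.20.0 (kallisto 0.46.2) in the submitters' processing notes. Whether strand was used is not stated. The deposited TPM sum to 1000000 per library and keep no depth, so the counting error of a value is unknown, and genes that share sequence depend on how reads were divided.

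From these values log2(TPM + 1) was computed, and groups were compared within each table by limma 3.58.1 (lmFit, eBayes with trend, R 4.3.3). Genes averaging under 1 TPM were left out, and p-values were adjusted by Benjamini-Hochberg over the rest. Genes were called at an adjusted p under 0.05 and over 1.5-fold. Fold changes on this scale understate those of genes with low TPM. Labels do not say that libraries came from separate cultures, so p-values measure the spread between these libraries, which may be technical. Flow and static libraries of the same number deviated together (r over genes from 0.294 to 0.662, above 0.1 in 6 of 6). Static replicates 2 to 6 each matched the flow library of their own number best, but static replicate 1 matched flow replicate 3 best. The pairing used in the block comes from this check, a hint from the data and not from the labels. When 200 genes of simulated libraries were given a log2 change of 1, 96% were recovered in the flow design (11388 genes) and 97.5% in the siRNA design (11209 genes). That change is larger than any of the 10 genes showed, at most 0.15 in flow against static and 0.49 with Ift88 siRNA. The recovery of smaller changes was not simulated.

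The 10 genes and the further lists were chosen with earlier results of these data known. Other genes are named if they were called or had, at an unadjusted p under 0.05, one of the 3 largest changes per direction in the chaperone lists, or if they were among the 5 closest to the mean of the 10. One gene that this rule names is not reported here. Coding sequences were aligned with biopython 1.88, shared 31-base words were counted over GENCODE M21 transcripts, an older set than the authors', and promoters are from RefSeq. Alternatives were the replicate block, other scaling (median of ratios), other weights of libraries, no filter, no fold threshold, a pseudocount of 0.1, each library left out, the label of flow replicate 6, the replicate sets and the sum of Hspa1a and Hspa1b. Tables were handled in Python 3.11.15 with pandas 2.3.3.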

Additional observations from a re-analysis of the deposited data

Results flagged for a closer look

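Of 40 groups of values (10 genes in 4 groups), 1 held a library far from the others. Hspb1 in static replicate 5 was at 318 TPM, where the nearest static library was at 266 TPM, a gap of 0.649 of the range of the 6 static libraries. Chance alone marks about 1 in 20 groups in this way. The flow library of the same number held the highest Hspb1 of its own group, 375 TPM. Without static replicate 5 the log2 fold change of Hspb1 in flow against static was 0.15 (limma adjusted p = 1.00), and without flow replicate 5 it was 0.011, after 0.09 with all libraries. It was called in neither.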

How the results depend on the processing

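None of the 10 genes was called in either comparison under any alternative run. The calls over all genes varied more. In flow against static, 12 genes were called, and 2 with no filter on low TPM, 28 with median-of-ratios scaling, 86 with library weights (75 higher and 11 lower), 68 with the replicate block (pairing by number), 0 with flow replicate 6 read as static (181 at an unadjusted p under 0.05), 3 within replicates 1 to 3 and 51 within replicates 4 to 6. Leaving out 1 library gave 5 (without flow replicate 4) to 87 (without flow replicate 2). In Ift88 siRNA against control siRNA, 25 genes were called (17 higher, 8 lower), and 6 with no filter, 48 with library weights, 44 with the replicate block, 71 with no fold threshold, 22 with median-of-ratios scaling (12 higher, 10 lower) and 11 to 23 without 1 library.

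Fold changes of the 10 genes near 0 turned sign under some alternatives. In flow against static, log2 fold changes with flow replicate 6 counted as static were -0.17 for Hspa1a, -0.15 for Hspa1b, -0.16 for their sum, -0.063 for Hsph1 and -0.00066 for Hspb1. Within replicates 1 to 3 they were -0.078, -0.098 and -0.097 for Hspa1a, Hspa1b and the sum and -0.038 for Hspb1, and within replicates 4 to 6 -0.024 for Hsph1 and 0.027 for Bag3. With library weights they were -0.046 for Hspa1a, -0.010 for Hspb1 and 0.014 for Bag3, and with median-of-ratios scaling 0.027 for Bag3. Without 1 library they ran from -0.057 to 0.23 for Hspa1a, -0.016 to 0.30 for Hspa1b, -0.023 to 0.29 for the sum, -0.048 to 0.058 for Hsph1, -0.0054 to 0.17 for Hspd1, -0.060 to 0.091 for Hspe1 and -0.089 to 0.050 for Bag3. In Ift88 siRNA against control siRNA, library weights gave 0.021 for Hspa1b and 0.019 for Hsph1, and leaving out 1 library gave -0.095 to 0.050 for Hspa1b, -0.091 to 0.049 for Hsph1 and -0.0052 to 0.096 for Hspd1. The difference in flow response between the replicate sets was 0.016 for Hsph1 with median-of-ratios scaling, after -0.053. The causes were not tested.

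The siRNA libraries share only a replicate number. Same-numbered libraries correlated at 0.046, 0.0028, 0.259 and 0.176, and with the number as a block Bag3 had a limma adjusted p of 0.0389 at the same log2 fold change of 0.30. In that fit 1.55% of the genes tested had an adjusted p under 0.05. With median-of-ratios scaling the correlation with the mean of the 10 genes fell to 0.87 for Hnrnpa2b1, 0.86 for Ints6, 0.84 for Abt1, 0.84 for Galm, 0.83 for Ugt1a6a and 0.89 for Ccdc86. TPM keep no depth, so no floor can be given for low genes such as Hspa1a.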

Other observations

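Levels of some of the genes differed between both experiments, whose tables were made separately, so these values are given without a test. Bag3 averaged 41.7 TPM in the flow and static libraries and 128 TPM in the siRNA libraries, and Dnajb1 averaged 46.5 and 116 TPM. Hspa1b went the other way, at 43.2 and 8.32 TPM, as did Hspe1, at 479 and 243 TPM. Hspa8 was at 1749 and 1721 TPM. For Bag3, Dnajb1, Hspa1b and Hspe1 the ranges over the libraries of both experiments did not overlap. The share of all genes that separate in this way was not computed, so it cannot be said whether this is particular to these genes. The siRNA transfection and all else that differed between the experiments cannot be told apart here.

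Much of the sequence of several of these genes is also found in other transcripts. Of the 31-base words of their transcripts, 73.9% for Hspa8, 54.1% for Hsp90aa1 and 50.1% for Hspd1 occurred in other genes, almost all of them annotated as pseudogenes or noncoding transcripts. For Hspb1 and Hspe1 the shares were 55.4% and 59.1%, and 41.9% and 55.9% of their words occurred in other protein-coding genes. For Hsph1 and Bag3 no such word was found elsewhere, and for Dnajb1 0.444%.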
